A study of Mus musculus with 8 samples.

Results

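S100a5, Fos, Fosb, Junb, Egr1, Arc, Nr4a1 and Npas4 are genes whose mRNAs rise when neurons are active. These 8 of the 19928 genes measured were taken by symbol from array features (transcript clusters) that carry a single gene symbol. Each of the 8 has 1 such cluster. The mRNAs came from olfactory mucosa of mice at postnatal day 3, of mixed 129 x C57BL/6J background, with 1 array per mouse. The 4 mutants were 123Cre:Lhx2(fl/fl), called cKO here. Of the 4 littermate controls, numbers 1 and 2 were Lhx2(fl/+) and numbers 3 and 4 were 123Cre:Lhx2(fl/+), so that every control carried 1 floxed Lhx2 allele and controls 3 and 4 carried the Cre as well. Cre from the 123Cre transgene first acts in immature olfactory sensory neurons (OSNs) and removes the first exons of Lhx2, which encodes a LIM-homeodomain transcription factor. Recombination reaches part of the OSNs, and by the study's in situ hybridization Lhx2 mRNA persists in many of them. All values are log2 signals of a whole tissue.

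In a neuron, synaptic or sensory input lets calcium in, and calcium-dependent kinases phosphorylate the transcription factor CREB. CREB binds the cAMP response element (CRE) and turns on immediate early genes within minutes, without new protein synthesis. Many of these genes encode transcription factors that in turn act on late response genes. In OSNs the input is an odor: odorant receptors raise cAMP, cyclic nucleotide-gated channels open, and calcium enters the cilia. S100a5 encodes a small calcium-binding protein of mature OSNs whose mRNA is known to depend on odor-evoked activity. The other 7 are not particular to OSNs, and genes such as Fos, Junb and Egr1 are induced also in cells that are not neurons. Which cells of the mucosa made these mRNAs was not tested.

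The promoters of S100a5, Fos, Nr4a1 and Npas4 are shown because they set the OSN-specific member beside immediate early genes with CRE letters. Each is read 5′ to 3′ on the strand of the gene, from 250 bases before to 50 bases after the annotated start in RefSeq (GRCm38.p6). The windows are chr3:90608272-90608571 on the plus strand for S100a5, chr12:85473640-85473939 on the plus strand for Fos, chr15:101266596-101266895 on the plus strand for Nr4a1 and chr19:4989922-4990221 on the minus strand for Npas4. Capitals mark the core of the CRE, TGACG or on the other strand CGTCA.
S100a5: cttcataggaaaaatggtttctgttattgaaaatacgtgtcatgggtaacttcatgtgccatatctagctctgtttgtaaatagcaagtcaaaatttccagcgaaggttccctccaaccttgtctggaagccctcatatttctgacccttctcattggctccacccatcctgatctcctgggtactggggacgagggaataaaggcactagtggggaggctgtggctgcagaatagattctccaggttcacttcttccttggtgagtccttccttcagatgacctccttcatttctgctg
Fos: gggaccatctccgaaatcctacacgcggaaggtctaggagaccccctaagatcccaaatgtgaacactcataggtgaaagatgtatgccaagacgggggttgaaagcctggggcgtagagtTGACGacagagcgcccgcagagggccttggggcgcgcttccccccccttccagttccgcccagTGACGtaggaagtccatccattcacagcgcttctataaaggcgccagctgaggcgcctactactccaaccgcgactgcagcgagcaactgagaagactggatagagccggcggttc
Nr4a1: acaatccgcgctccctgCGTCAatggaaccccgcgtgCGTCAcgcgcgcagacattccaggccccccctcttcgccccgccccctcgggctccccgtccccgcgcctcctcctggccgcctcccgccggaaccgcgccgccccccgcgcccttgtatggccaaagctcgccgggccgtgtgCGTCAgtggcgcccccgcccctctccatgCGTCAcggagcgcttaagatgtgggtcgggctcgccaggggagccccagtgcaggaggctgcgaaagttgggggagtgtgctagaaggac
Npas4: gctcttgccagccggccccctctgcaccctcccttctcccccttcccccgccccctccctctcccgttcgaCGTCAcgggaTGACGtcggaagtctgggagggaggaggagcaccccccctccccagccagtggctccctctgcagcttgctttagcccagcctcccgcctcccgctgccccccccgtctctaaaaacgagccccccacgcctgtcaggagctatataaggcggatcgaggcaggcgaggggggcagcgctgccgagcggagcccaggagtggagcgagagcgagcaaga

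Promoters of 6 members were read, and 5 of these held at least 1 CRE core. Those of Arc and Egr1 were not read, so the counts do not cover them. The Nr4a1 promoter held 4, those of Fos and Npas4 2 each, and those of Fosb and Junb 1 each. The S100a5 promoter held 0. Among 32851 RefSeq promoters of the same length, 20.8% held the CRE core on either strand. Searched in the same way, a CArG box, the element of serum response factor, was in 1.63% and the homeodomain core TAATNA in 26.5% of all promoters, and neither was in any of the 6. A match in letters is not a binding site, and its absence covers these 300 bases only.

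None of the 8 mRNAs differed between cKO and control mice beyond the spread between mice. At an adjusted p under 0.01 by limma 0 of 8 passed, against 424 of all genes (2.13%), of which 412 (2.07%) were lower and 12 (0.0602%) higher in cKO mice. At an adjusted p under 0.05, which 5.54% of genes reached, 0 of 8 passed. Even without adjustment 0 of 8 had a p under 0.05 by limma or by the t-test of the study's methods. The t-test was run on the deposited values without the methods' normalization to mature OSN mRNAs. At this p limma gave 9.87% of all genes lower and 5.13% higher, and the t-test gave 2955 of 19928 in either direction. The cKO and control mice overlapped for each of the 8. Of all genes, 8.43% had every cKO mouse below every control and 3.18% every cKO mouse above. At shares this small, 0 of 8 does not set the members apart from all genes. The same shares apply to the counts in the gene lists below. In a whole tissue, fewer cells that make an mRNA and less of it per cell cannot be told apart.

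S100a5 mRNA read 13.08, 13.31, 13.19 and 13.29 in controls 1 to 4 and 13.27, 12.82, 13.20 and 13.14 in cKO mice 1 to 4. Only cKO mouse 2 lay below the lowest control, and cKO mouse 1 lay above 2 of the controls. The difference was -0.11 (SE 0.10, adjusted p = 0.701 by limma), with a 95% confidence interval of -0.33 to 0.12, or from 20.6% lower to 8.58% higher. Without cKO mouse 2 it was -0.01.

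Fos, Fosb and Junb encode subunits of the AP-1 transcription factor. Fos mRNA read 7.88, 8.40, 8.05 and 8.08 in controls 1 to 4 and 8.14, 7.90, 8.20 and 8.07 in cKO mice 1 to 4. Controls 1 and 2 were the lowest and the highest of all 8 mice, so the spread was among the controls, and the difference was -0.02 (SE 0.11, 95% confidence interval -0.27 to 0.23, adjusted p = 0.952 by limma). Its direction was not stable: it was 0.04 after quantile normalization and 0.08 without control 2. Fosb mRNA read 7.777, 7.997, 7.961 and 7.946 in controls and 7.745, 7.745, 7.654 and 7.947 in cKO mice. cKO mice 1 to 3 lay below all controls and cKO mouse 4 lay among them, and the difference was -0.15 (SE 0.07, interval -0.32 to 0.02, adjusted p = 0.421). Junb mRNA read 8.48, 8.54, 8.50 and 8.36 in controls and 8.60, 8.53, 8.53 and 8.55 in cKO mice. This was the tightest member among the cKO mice (SD 0.03 over 4 mice), and the difference was 0.08 (SE 0.05, interval -0.03 to 0.19, adjusted p = 0.522).

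Egr1 encodes a zinc finger transcription factor and Nr4a1 an orphan nuclear receptor. Egr1 mRNA read 8.99, 9.39, 9.20 and 9.14 in controls 1 to 4 and 9.16, 8.96, 9.42 and 9.25 in cKO mice 1 to 4. The lowest and the highest values of both groups lay close together, and the difference was 0.02 (SE 0.11, interval -0.23 to 0.27, adjusted p = 0.962 by limma), turning to -0.05 with sex as a block. Nr4a1 mRNA read 10.11, 10.56, 10.18 and 10.23 in controls and 10.16, 9.77, 10.13 and 10.11 in cKO mice. Control 2 stood above and cKO mouse 2 below the other 6 mice, which lay within 10.11 to 10.23. The Nr4a1 difference of -0.23 (SE 0.12, interval -0.49 to 0.04, adjusted p = 0.435), or 14.5% lower, was the largest of the 8 in size, and it was -0.13 without either of those mice.

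Arc encodes a cytoskeletal protein of synapses, and Npas4 a transcription factor that is induced by calcium influx in neurons. Arc mRNA read 8.23, 8.33, 8.32 and 8.29 in controls 1 to 4 and 8.43, 8.28, 8.37 and 8.44 in cKO mice 1 to 4. All cKO mice other than mouse 2 lay above the controls, with a difference of 0.09 (SE 0.05, interval -0.03 to 0.20, adjusted p = 0.499 by limma). Npas4 mRNA read 7.50, 7.13, 7.36 and 7.52 in controls and 7.37, 7.32, 7.21 and 7.46 in cKO mice. The cKO values lay within the range of the controls, and the difference was -0.04 (SE 0.09, interval -0.25 to 0.17, adjusted p = 0.895), or 0.01 after quantile normalization. The mean Npas4 value of 7.36 lay below the lower quartile of all genes (7.52). Whether background signal compresses differences at this level was not tested.

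**Figure D1:**
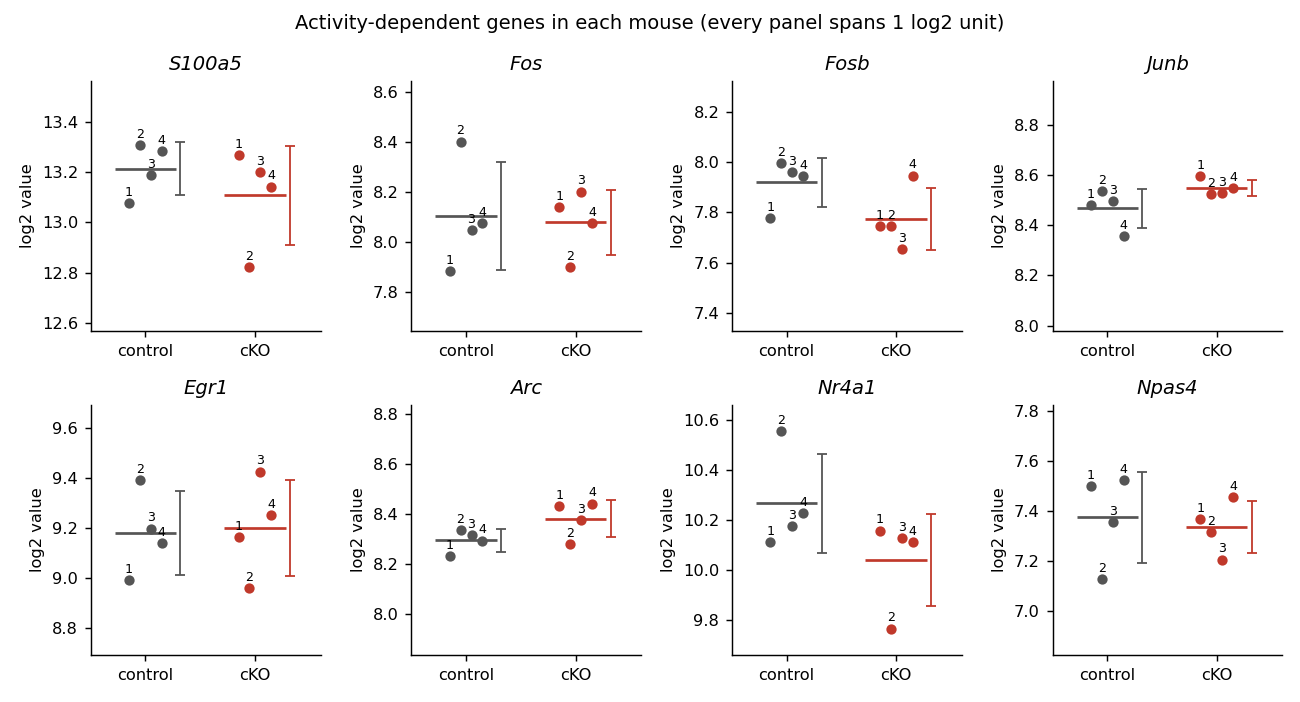
Each panel plots the log2 value of 1 member (vertical axis, spanning 1 log2 unit in every panel) in control (grey) and cKO (red) mice, numbered 1 to 4, with the group mean as a bar and ± 1 SD beside it. The groups overlap in all 8 panels, and cKO mouse 2 is the lowest of the 8 mice for S100a5, Egr1 and Nr4a1.

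Sample titles begin with A or B, a mark the labels do not explain, and sex was read from sex-linked mRNAs. The only cKO mouse of letter B, mouse 2, was also the only female, so these cannot be told apart from the mouse itself. Within letter A, with 3 cKO and 2 control mice, the S100a5 difference was -0.03, that of Nr4a1 -0.07 and that of Fos 0.08. Within letter B, with 1 cKO mouse and 2 controls, they were -0.37, -0.57 and -0.24. With the letter as a block in the fit, the adjusted p-values by limma ranged over the members from 0.368 for Fosb to 0.972 for Egr1, and 0 of 8 passed. Between the control genotypes, letter and Cre coincide, and the 123Cre:Lhx2(fl/+) controls read 0.05 higher than the Lhx2(fl/+) controls for S100a5 and 0.13 lower for Nr4a1.

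S100a5 differed less between the groups than the mature OSN markers listed beside it. Of 20 mature OSN marker genes 19 were measured. All 19 read lower in every cKO mouse than in every control, with log2 differences from -0.34 (Pde4a) to -1.603 (Cnga4). At an adjusted p under 0.01 by limma 5 of them fell: Omp, Adcy3, Cnga4, Pde1c and Slc17a6 (-0.46, adjusted p = 0.00797). Every one of the 19 differences exceeded that of S100a5 in size and lay below the lower limit of its confidence interval. Omp, the marker of OSN maturity, read 13.399, 13.390, 13.487 and 13.470 in controls and 12.678, 11.997, 12.623 and 12.585 in cKO mice, a fall by 0.97 (SE 0.14, adjusted p = 0.00605). Lhx2 itself differed by -0.24 (SE 0.11, adjusted p = 0.337) in a cluster that spans deleted and retained exons, and Gap43, a marker of immature OSNs, by -0.29 (adjusted p = 0.268).

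**Figure D2:**
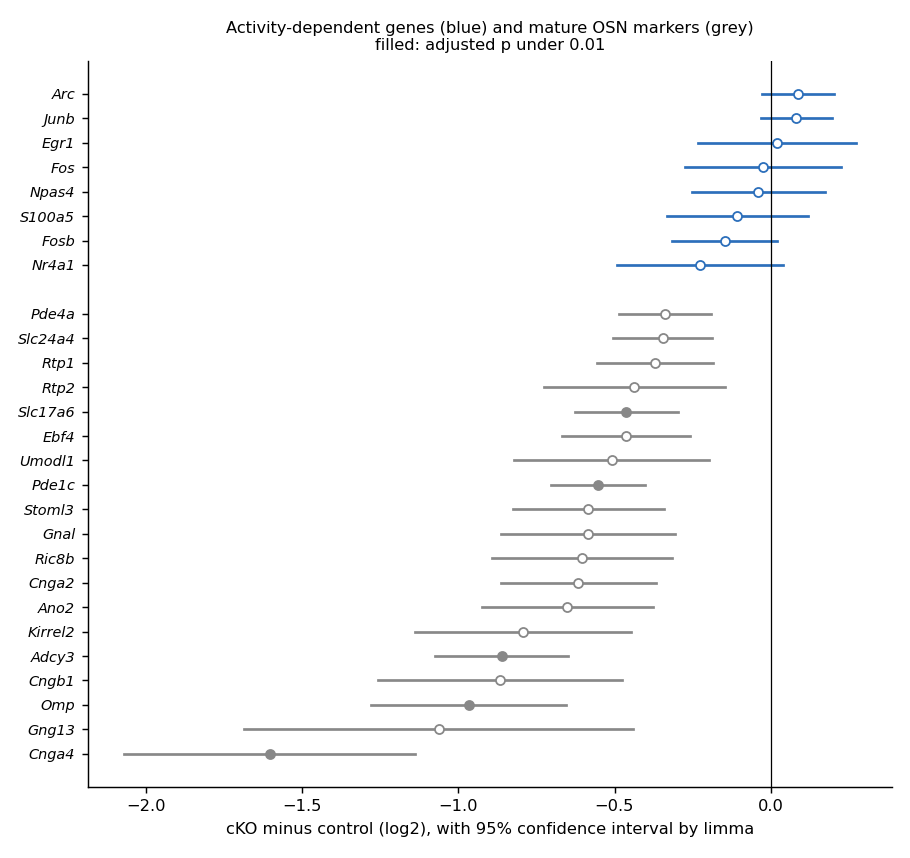
The cKO minus control log2 difference (horizontal axis) of the 8 activity-dependent genes (blue) and the 19 mature OSN markers (grey) is drawn with its 95% confidence interval by limma, and filled points passed an adjusted p under 0.01. The interval of every activity-dependent gene contains 0, and that of no mature OSN marker does.

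The mean log2 value over the 19 markers was 12.001, 12.019, 12.054 and 12.080 in controls 1 to 4 and 11.557, 10.999, 11.502 and 11.429 in cKO mice 1 to 4, which puts the cKO mice at 63.0% of control. The S100a5 value minus this mean was 1.08, 1.29, 1.14 and 1.21 in controls (mean 1.18 ± 0.09 SD over the 4 mice) and 1.71, 1.82, 1.70 and 1.71 in cKO mice (mean 1.74 ± 0.06 SD over the 4 mice). Relative to mature OSN markers, S100a5 mRNA was thus 1.47-fold more abundant in cKO mice (log2 difference 0.56), in 4 of 4 mice above all controls (exact permutation test, two-sided, p = 0.0286, the smallest that 70 arrangements allow). The markers were chosen with earlier results of these data known. All 19 already separated the groups and S100a5 did not, so this p-value restates those values and is no separate support. The ratio sets a mean marker difference of -0.67 against the -0.11 of S100a5, so its size rests on which mRNAs stand for mature OSNs. The study's methods use a far wider set of mature OSN mRNAs, which was not used here. Against Omp alone the difference was 0.86 and against the odor transduction genes 0.56 (each exact p = 0.0286). Omp and all of the odor transduction genes but Gnb1 are among the 19 markers, so these are not separate references.

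Leaving out any 1 mouse gave 0.53 to 0.60. Within males it was 0.50 and within letter A 0.54 (each exact p = 0.10, the smallest these designs allow). The S100a5 signal is high on this array. Of all genes 133 had a higher mean, and 1 of these, Stoml3, a stomatin-like protein of OSN cilia, had a difference below -0.50 (-0.58, SE 0.11, adjusted p = 0.015 by limma). Omp, with a lower mean over all mice (12.95 against 13.16), read higher than S100a5 in controls (mean 13.44 against 13.22). Its difference was -0.97. Whether signals at this height are compressed was not tested.

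**Figure D3:**
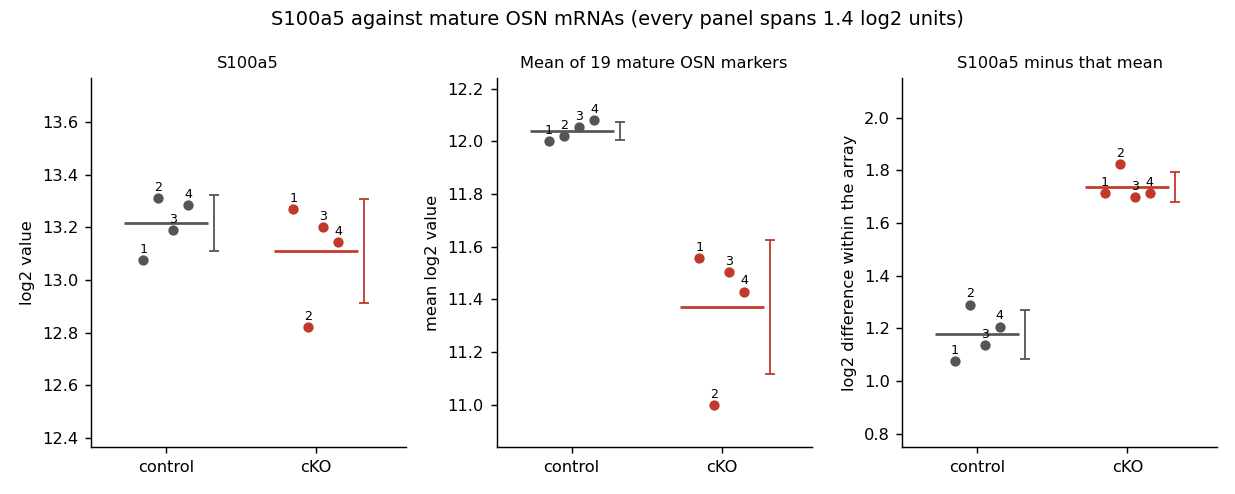
Left, the S100a5 log2 value; centre, the mean log2 value over 19 mature OSN markers; right, the difference of the first 2 within each array, in control (grey) and cKO (red) mice numbered 1 to 4, with group means as bars and ± 1 SD beside them. The groups overlap on the left and separate in the other panels, where cKO mice lie at 10.999 to 11.557 against 12.001 to 12.080, and at 1.70 to 1.82 against 1.08 to 1.29.

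Some of the members varied together from mouse to mouse. Each value was taken as its departure from the mean of its own group, and for the 28 pairs of members Pearson's r over the 8 mice was above 0 in 22 and below 0 in 6. Departures of S100a5 and Nr4a1 gave r = 0.857 and Spearman's rho = 0.952 (exact permutation within groups, p = 0.00174 for each, the smallest of 576 arrangements, and 0.0486 adjusted over the 28 pairs). This relation rested in part on the extremes: without cKO mouse 2 and control 1, the mice farthest from the median of S100a5, r was 0.603, and without cKO mouse 2 alone it was 0.726 (exact p = 0.160). Fos and Nr4a1 gave r = 0.941 and rho = 0.952 (exact p = 0.00694, adjusted p = 0.0648 for r and 0.081 for rho), and r = 0.929 without controls 1 and 2. Of the 28 pairs, 7 had an exact p under 0.05 for r, all among S100a5, Fos, Egr1, Arc and Nr4a1, and 1 had an adjusted p under 0.05.

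The mice behind these values were the same for several genes. Control 1 and cKO mouse 2 lay below their group means in S100a5, Fos, Egr1, Arc and Nr4a1, and control 2 lay above in all 5. Npas4 departed from this pattern, with r = -0.725 against Fos (exact p = 0.111), -0.634 against Egr1 (exact p = 0.116) and -0.522 against Nr4a1 (exact p = 0.241), none below 0.05 after adjustment. S100a5 also followed the mature OSN mean, with r = 0.906 and rho = 0.738 (exact p = 0.0156 and 0.0434, adjusted p = 0.125 and 0.267 over the 8 members), but r was 0.584 without cKO mice 1 and 2. Control 1, control 2 and cKO mouse 2 are also all of the mice of letter B, and the permutation within groups took no account of the letter. The letters leave too few mice for a correlation within each of them, so the part of the letter in these relations was not tested. All mRNAs of a mouse come from 1 array. Low values in control 1 and high values in control 2 were not particular to the members. Among controls, horizontal basal cell markers were also lowest in control 1 (mean 9.55) and highest in control 2 (9.99). The same held for heat shock genes (10.95 and 11.19), whereas Bowman's gland markers were highest in control 1 (11.63). In a fit with weights per array, cKO mouse 2 (0.59) and control 2 (0.61) had the lowest weights.

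**Figure D4:**
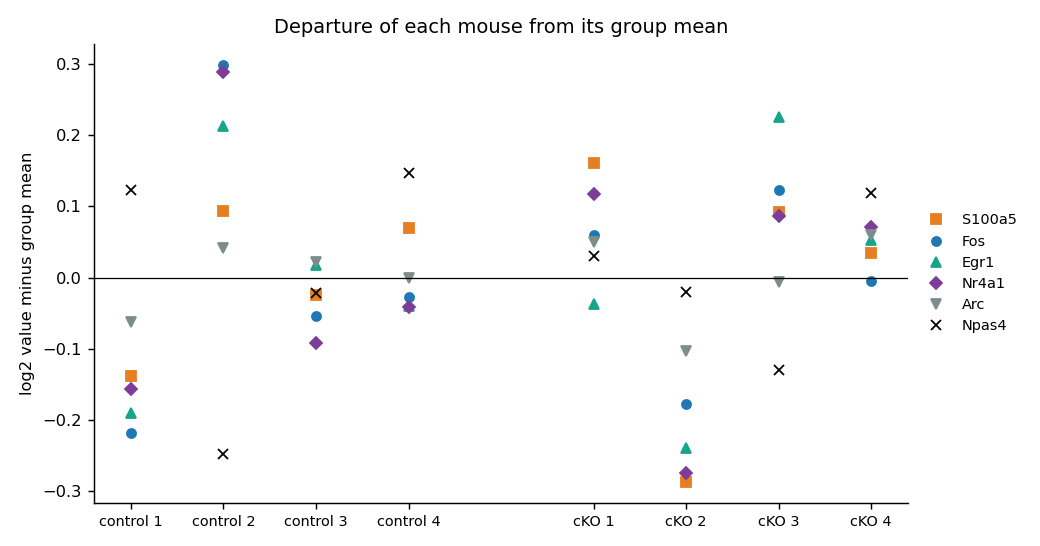
The vertical axis is the log2 value of 6 members minus the mean of the mouse's own group, and the horizontal axis gives the 8 mice. S100a5, Fos, Egr1, Arc and Nr4a1 are low together in control 1 and cKO 2 and high together in control 2, where Npas4 is at its lowest.

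Among 14945 genes above the lower quartile of level, those whose departures were most like S100a5 over the 8 mice were Fbxo36 (r = 0.991), BC005624 (0.989), Diras1 (0.988), Olfr266 (0.987) and Cfap126 (0.984), and 2.11% of the genes exceeded 0.9. Those most like Fos were Rab11fip5 (r = 0.989), Rpl36 (0.988), Gm10874 (0.978), H4c14 (0.973) and Lgals3 (0.971), with 0.990% above 0.9. All these genes share the 8 arrays, and r is given here as a description.

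The wider set of immediate early genes also held none past the threshold, which 2.13% of all genes passed. Of 43 listed genes 42 were measured, and by limma's adjusted p under 0.01 none moved in either direction (0 fell, 0 rose). Without adjustment, 1 was lower and 4 were higher at p under 0.05, with 5 in either direction by the methods' t-test. Their median log2 difference was 0.08, against 0.03 over all genes and -0.03 over the members. Above 0 were 33 of the 42, 12425 of all 19928 genes and 3 of the 8 members. Jun, the AP-1 subunit that pairs with Fos proteins, read 12.09, 12.08, 12.15 and 12.21 in controls 1 to 4 and 12.38, 12.60, 12.46 and 12.32 in cKO mice 1 to 4. Every cKO mouse lay above every control, with a difference of 0.31 (SE 0.07, adjusted p = 0.0284). The next smallest p-values belonged to Trib1 (0.17, adjusted p = 0.166), Gadd45g (0.14, adjusted p = 0.251) and Jund (0.19, adjusted p = 0.256).

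Late response genes, which encode secreted peptides, growth factors and signalling proteins, also gave 0 that fell and 0 that rose among 13 measured of 14. Without adjustment 1 was lower and 4 were higher at p under 0.05 by limma, and the t-test gave 5. Nptx1, a neuronal pentraxin, differed by 0.30 (adjusted p = 0.0653), Rgs2, a regulator of G-protein signalling, by 0.31 (adjusted p = 0.0761), and Scg2, a granin of secretory vesicles, by 0.23 (adjusted p = 0.0866). Nptx2 differed by -0.32 (adjusted p = 0.0909). Of the 13, 3 had all cKO mice above all controls (Nptx1, Rgs2 and Scg2) and 2, Nptx2 among them, had all cKO mice below. The list median was 0.07.

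Genes whose level in OSNs is known to depend on neural activity, most of them adhesion and axon guidance molecules that sort OSN axons in the olfactory bulb, read differently from the immediate early genes. The list was not split by whether activity raises or lowers each gene, so its falls and its median are not a measure of activity. Of 8 measured, 3 fell and 0 rose, 7 had all cKO mice below all controls, and the median was -0.45. Kirrel3, an adhesion molecule, read 10.36, 10.38, 10.40 and 10.47 in controls 1 to 4 and 9.73, 9.59, 9.67 and 9.90 in cKO mice 1 to 4, a fall by 0.68 (SE 0.07, adjusted p = 0.00207 by limma). Epha5, an ephrin receptor, fell by 0.50 (SE 0.08, adjusted p = 0.00717) and its ligand Efna5 fell by 0.28 (SE 0.04, adjusted p = 0.00714), both without overlap between the groups. Sema7a, a semaphorin, differed by -0.62 (adjusted p = 0.013), and Kirrel2, which is also among the mature OSN markers, by -0.79 (adjusted p = 0.018). H2bc21, an H2B histone gene formerly named Hist2h2be, differed by -0.35 and Pcdh10, a protocadherin, by -0.07. These genes are made by OSNs, and the mature OSN markers, at a median of -0.59, moved with them. What part the number of mature OSNs has in their falls was not tested.

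Between calcium entry and transcription, 1 of 32 measured genes of 39 listed fell and 0 rose, against 2.07% and 0.0602% of all genes. Camk2d, the delta subunit of calcium/calmodulin-dependent kinase II, read 11.88, 11.80, 11.98 and 11.90 in controls and 11.53, 11.50, 11.55 and 11.55 in cKO mice. The cKO mice lay below all controls, and it fell by 0.36 (SE 0.05, adjusted p = 0.00506 by limma). Camkk2, a kinase upstream of CaMK4, differed by -0.15 (adjusted p = 0.0937), Crtc3, a CREB coactivator, by -0.10 (adjusted p = 0.251) and Ppp3ca, a calcineurin subunit, by -0.12 (adjusted p = 0.302). The list median was 0.02. Upstream, of 13 odor transduction genes, all but Gnb1 also mature OSN markers, 3 fell and 12 had all cKO mice below all controls: Cnga4, a channel subunit, fell by 1.603 (SE 0.205), Adcy3, the olfactory adenylyl cyclase, fell by 0.86 (SE 0.09), and Pde1c, a calcium-dependent phosphodiesterase, fell by 0.55 (SE 0.07).

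**Figure D5:**
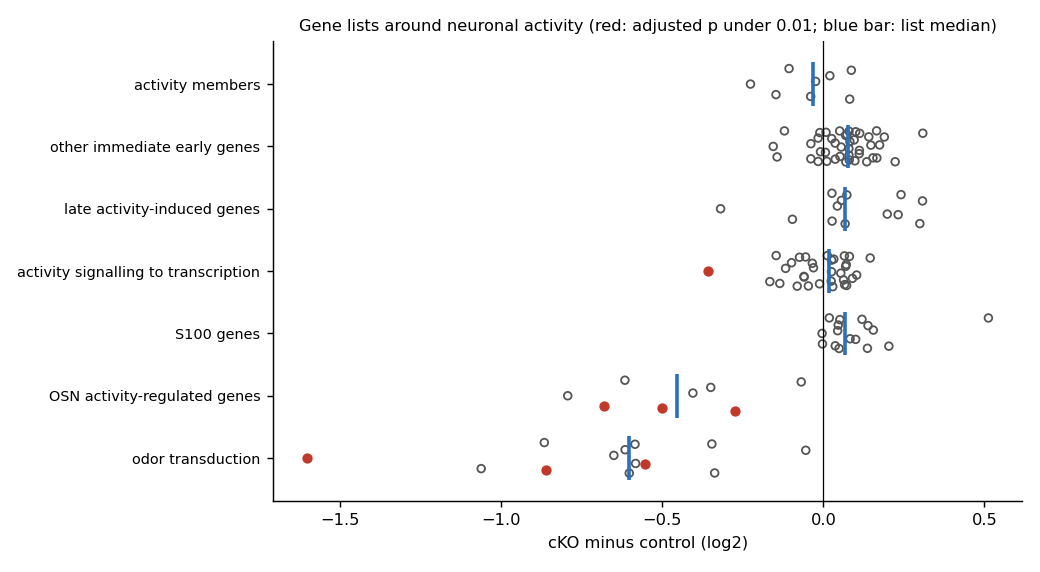
Each point is the cKO minus control log2 difference (horizontal axis) of 1 gene in the list named on the vertical axis, red where the adjusted p was under 0.01, and the blue bar is the median of the list. The medians of the activity-dependent members, of other immediate early genes and of late activity-induced genes lie between -0.03 and 0.08, and those of the OSN activity-regulated and odor transduction genes at -0.45 and -0.60.

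By the methods' t-test none of these falls had an adjusted p under 0.01. The lowest adjusted p was 0.0305, for Kirrel3 and Efna5. With either control genotype alone, 0 of all genes passed by limma. The limma calls were also often lost when 1 mouse was left out, and different mice did so. The differences kept their direction, at -1.71 to -1.36 for Cnga4 and -0.29 to -0.26 for Efna5. Kirrel3 kept an adjusted p under 0.01 in 7 of 8 fits that left out 1 mouse (0.011 without control 1). Pde1c kept it in 3, Camk2d, Epha5, Adcy3, Cnga4, Omp and Slc17a6 in 2 each, and Efna5 in 0. Their adjusted p-values in these fits reached at most 0.0302.

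S100a5 belongs to a family of calcium-binding proteins, and the other 16 genes with an S100 symbol were examined beside it (S100pbp encodes a binding partner). Of these 0 fell and 0 rose, with a median of 0.07. Without adjustment limma gave 0 lower and 3 higher at p under 0.05, and the t-test also gave 3. S100z read 10.01, 10.19, 10.27 and 10.42 in controls 1 to 4 and 10.74, 10.76, 10.89 and 10.56 in cKO mice 1 to 4. All cKO mice lay above all controls, with a difference of 0.51 (SE 0.10, adjusted p = 0.0174). S100g (0.20, adjusted p = 0.219), S100a10 (0.14, adjusted p = 0.283) and S100a3 (0.15, adjusted p = 0.339) followed.

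Many immediate early genes respond in cells other than neurons, so markers of the other cells of the mucosa were read beside them. Of 85 measured markers in 13 lists, from sustentacular cells and Bowman's glands to macrophages, fibroblasts and olfactory bulb neurons, 0 fell and 0 rose. Without adjustment limma gave 2 lower and 2 higher at p under 0.05, the t-test gave 3, and the median was 0.04. Of 16 immature OSN markers 1, the stathmin Stmn4, fell by 0.30 (SE 0.04, adjusted p = 0.00447), and it passed in 2 of 8 fits that left out 1 mouse. Without adjustment limma gave 4 of the 16 lower and 1 higher at p under 0.05, and the t-test gave 4. In 4, with Dcx, Ncam1 and Gap43 among them, every cKO mouse lay below every control (list median -0.02). Of 7 measured markers of OSN progenitors 0 fell and 0 rose, but without adjustment limma gave 1 lower and 4 higher at p under 0.05 (5 by the t-test), and in 4 every cKO mouse lay above every control (median 0.12). Of 7 markers of dividing cells 0 fell and 0 rose, all 7 differences were above 0 (median 0.12), and 1 was higher without adjustment by limma and by the t-test. The part of these cells in the values of Jun and other immediate early genes was not tested. Heat shock genes (7 measured, median 0.02) and glucocorticoid-induced genes (7 measured, median 0.01) gave 0 that fell and 0 that rose, with 0 at an unadjusted p under 0.05 by limma or the t-test.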

How the data were processed

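Total RNA of 8 olfactory mucosae was hybridised to 8 Affymetrix Mouse Gene 1.0 ST chips. The authors deposited log2 values for 28312 transcript clusters, each combining probe sets over the exons of a gene, made with Affymetrix Expression Console per the submitters' processing notes. Background correction and summarization: not given in the sources used here, nor is the version. Array medians lay between 8.83 and 8.89, and within groups arrays differed by a root mean square of 0.16 to 0.28. The platform annotation gave 1 symbol for 21759 clusters, several for 1605 (left out) and none for 4948, and 21668 matched a RefSeq table by Entrez identifier. Where 994 genes had several clusters, the one with the highest mean was kept, leaving 19928 genes.

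Groups came from the labels. Replicate numbers follow accession order and pair nothing. By the study's methods, mutants and controls came from shared litters, which are not named in the labels. Differences were tested with limma (version 3.58.1, R 4.3.3; lmFit and eBayes, two-sided, Benjamini-Hochberg over all genes, adjusted p under 0.01), after a test on simulated data. Single values were compared by exact permutation over arrays. The number of arrays limits the precision.

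The members and gene lists were chosen with earlier results of these data known. The genes named were drawn mainly from the 8 members, Lhx2, Emx2, Omp and Gap43, the genes of each list past the threshold and up to 4 with the smallest p, and the 5 most like S100a5 or Fos. Stoml3, Pde4a and Pcdh10 were named after their values were seen. Alternatives were the t-test of the methods (without their normalization to mature OSN mRNAs), quantile normalization, eBayes with a trend and robust, a looser adjusted p (0.05), centring on genes other than chemoreceptors, a filter on dim genes, other choices of cluster, title letter or sex as a block, weights per array, either control genotype alone, each mouse left out, and, chosen after seeing the data, males only and letter A only.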

Additional observations from a re-analysis of the deposited data

Results flagged for a closer look

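Of 82 groups of 4 mice checked, 6 held a mouse far from the other 3, and in each it was cKO mouse 2. Chance gives about 1 in 20 groups, and these groups share mice. Nr4a1 mRNA read 9.77 in cKO mouse 2 and 10.11 to 10.16 in the other cKO mice. Among mRNAs of the OSN lineage it was low as well: Lhx2 read 12.55 against 13.01 to 13.03, Omp 11.997 against 12.585 to 12.678, and Cnga4 8.76 against 9.65 to 9.81. Gadd45g, a growth arrest gene induced by stress and activity, was high at 10.177 against 10.003 to 10.011. S100a5 minus the mature OSN mean was highest in the same mouse, at 1.82 against 1.70 to 1.71. Without cKO mouse 2 the Nr4a1 difference was -0.13 and S100a5 relative to the mature OSN mean was 0.53.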

How the results depend on the processing

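No paired analysis was possible because the replicate numbers follow accession order and the labels do not say which mice shared a litter. Under every alternative run 0 of the 8 members passed an adjusted p under 0.01, and the smallest adjusted p was 0.128 (Junb, quantile normalization); the filter on dim genes removed Npas4. Members with differences near 0 changed sign. Fos was 0.0417 under quantile normalization, 0.0483 with array weights, 0.0162 with only 123Cre:Lhx2(fl/+) controls, 0.0755 within letter A, and -0.0969 to 0.0753 with 1 mouse left out. Npas4 was 0.00783 under quantile normalization, 0.0234 with only Lhx2(fl/+) controls, 0.102 in males, and -0.122 to 0.00944 with 1 mouse left out. Egr1 was -0.0111 with the letter as a block, -0.0471 with sex as a block, -0.0147 in males, and -0.055 to 0.100 with 1 mouse left out. Emx2, at -0.04, was 0.0108 with only Lhx2(fl/+) controls. S100a5 ranged from -0.16 to -0.01 with 1 mouse left out.

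S100a5 relative to the mature OSN mean was 0.55 with only Lhx2(fl/+) controls and 0.57 with only 123Cre:Lhx2(fl/+) controls (exact p = 0.0667 each), 0.50 in males and 0.54 in letter A (exact p = 0.10 each), the smallest p of designs with fewer mice. With 1 mouse left out it was 0.53 to 0.60 (exact p = 0.0286 each). The count of all genes past the threshold, 424, was 1 by the t-test, 1104 at an adjusted p under 0.05, 0 with either control genotype alone, 210 in males and 30 to 676 with 1 mouse left out. The lowest was without control 1 and the highest without cKO mouse 2; it was 55 and 103 without cKO mice 3 and 4, and 79, 85 and 59 without controls 2 to 4. Centring on genes other than chemoreceptors moved differences by 0.02. Of 957 values of named genes across alternatives, 101 kept their direction but no longer passed and 12 newly passed.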

Other observations

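Xist, the noncoding RNA of the inactive X chromosome, read 13.43 to 13.51 in the 3 mice with low Y-linked mRNAs. In the 5 mice with high Y-linked mRNAs it read 9.85, 9.32 and 7.48 in cKO mice 1, 3 and 4 and 9.20 and 6.74 in controls 2 and 3. The sex calls used for the block and for the values within males rest on these mRNAs. In cKO mice 1 and 3 and control 2 Xist lay between the values of the other 2 males and those of the females, and whether each of these arrays holds RNA of a single mouse was not tested.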
